A study of Mus musculus with 54 samples.

Results

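Hif1a, Epas1, Arnt, Egln1, Egln3, Hif1an, Vhl, Vegfa, Bnip3 and Adm were followed through all 15 conditions of a mouse macrophage study. They were chosen by symbol, as the subunits, oxygen sensors and classical target genes of the hypoxia-inducible factor (HIF) pathway, and are 10 of the 39179 genes in the deposited tables. All 10 were tested in every comparison. The cells were thioglycolate-elicited peritoneal macrophages of C57BL/6 mice, taken as the adherent cells of the peritoneal exudate and measured as bulk RNA. In the polarization experiment (50-nucleotide reads), cells of 3 mice were kept for 24 h without stimulus (M0), with LPS at 100 ng/ml plus IFNγ at 50 ng/ml (M1-like), or with IL-4 at 10 ng/ml (M2-like). Each mouse gave 2 technical libraries per condition, which were added up. The reprogramming experiment (150-nucleotide reads, 3 replicates per condition) had untransfected and mock-transfected M0, M1-like and M2-like macrophages, stimulated for 24 h at the same concentrations. It also had M2-like macrophages transfected with a negative siRNA pool, with a pool against E2f1, Myc, Pparg or Stat6 alone, or with all of these pools together, called iM1 macrophages. RNA of the transfected cells was taken 48 h after transfection, and IL-4 was not present during that time. For profiles without transfection the study's methods give 24 h after polarization, but they do not say whether this covers the untransfected cells of the reprogramming experiment. The labels do not say whether the replicates of that experiment came from separate animals, so its p-values measure only the spread between these samples.

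HIF is a pair of proteins, an oxygen-regulated alpha subunit (HIF-1α from Hif1a, or HIF-2α from Epas1) and the constant partner ARNT. In the presence of oxygen, the prolyl hydroxylases encoded by Egln1 and Egln3 mark the alpha subunit, the VHL protein recruits the ubiquitin ligase that leads to its degradation, and the asparaginyl hydroxylase encoded by Hif1an blocks its contact with coactivators. Macrophages are known to raise HIF-1α under inflammatory stimuli also without hypoxia, and RNA levels do not show the amount or activity of the HIF proteins, which are controlled largely after translation.

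Normalized expression is given as CPM (counts scaled by the TMM-adjusted library size to the same total) per sample, with the mean ± SD of 3 samples. Log2 fold changes are given with their standard error (SE) and the adjusted p-value of edgeR's quasi-likelihood test, and a gene was called at an adjusted p-value under 0.05. The samples held 39577911 to 59443987 counts in the polarization and 13421854 to 19704195 in the reprogramming experiment. The siRNA target genes fell, to 25.2% (E2f1), 38.0% (Myc), 21.9% (Pparg) and 27.3% (Stat6) of the mean of the negative pool in the single knockdowns, and to 60.4%, 39.6%, 28.3% and 53.9% in iM1 macrophages. All 8 macrophage markers were detected in every sample, with a summed level of 6448 to 18409 CPM, which was lower in M1-like than in M0 samples (10392 to 11385 against 16161 to 17437 CPM at 24 h, 6955 to 8096 against 16622 to 16988 CPM untransfected, and 6448 to 7490 against 12906 to 15714 CPM mock). Over all samples Lyz2 had a median of 8641 CPM, Cd68 of 2011 CPM and the other macrophage markers of 99.0 to 630 CPM, so that sum was mainly Lyz2. Of the 6 endothelial markers, Sox17 was at 0 in all samples and the summed level did not exceed 2.24 CPM, and the 4 T cell markers together reached at most 1.5 CPM. Of the 6 mesothelial or fibroblast markers, Col1a1, Col3a1 and Pdgfra had medians of 71.8, 29.6 and 27.5 CPM over all samples. Wt1, Upk3b and Msln had medians of 5.26, 2.85 and 0.0679 CPM. The summed level of the 6 moved with the conditions. It was 12.1 to 19.5 CPM in M0 and 2.84 to 4.62 CPM in M1-like samples at 24 h. In untransfected samples it was 81.1 to 163 CPM against 18.1 to 58.4 CPM, and in mock samples 120 to 193 CPM against 10.7 to 24 CPM. The 4 B cell markers summed to 8.73 to 31.1 CPM in untransfected M0 and 0.672 to 1.47 CPM in untransfected M1-like samples. The summed level of the 4 neutrophil markers was higher in M1-like than in M0 samples. It was 9.35 to 14 against 5.95 to 8.03 CPM at 24 h, 12.2 to 13.1 against 6.02 to 10.2 CPM untransfected and 7.56 to 11.9 against 3.49 to 5.68 CPM mock. Over all samples S100a8 had a median of 5.62 CPM and S100a9, Ly6g and Mpo medians of 0 CPM, so this sum was mainly S100a8. The summed level of the 5 mast cell or eosinophil markers was lower, at 0.687 to 0.766 against 1.49 to 2.86 CPM at 24 h, 0.126 to 0.870 against 1.09 to 2.67 CPM untransfected and 0.174 to 0.489 against 1.63 to 2.26 CPM mock. Of these 5, Epx and Prg2 had medians of 0 CPM and did not exceed 0.134 and 0.109 CPM. The part of these cells in the results below was not tested.

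HIF binds the core motif ACGTG or GCGTG, which lets the promoters be shown beside the expression of genes that moved together. Promoter sequences (RefSeq, GRCm38.p6, the 250 bases before the annotated start) were found for 9 of the 10 genes, all except Epas1. Searched on both strands, ACGTG was in 16.6% and GCGTG in 28.2% of 32851 promoters of this length, 38.6% held at least 1 of these motifs and 16.7% held 2 or more. The window of Bnip3 held 5 matches, that of Hif1a 3, those of Egln1 and Adm 2 each, those of Egln3 and Arnt 1 each, and those of Vhl and Hif1an none. Of the 2 annotated windows of Vegfa, the one at its upstream start held none and the other, inside the gene, held 2. The stretches with the matches in Bnip3, Adm and Egln3, 3 genes with large rises at 24 h, and in Hif1a are printed 5′ to 3′ on the strand of the gene, with matches of either strand in capitals (CACGC is GCGTG and CACGT is ACGTG on the opposite strand). The CACGTG in Bnip3 and in Hif1a counts as 2 overlapping ACGTG matches and is also an E-box, the motif of MYC and other factors. The window of Hif1a lies inside the annotated gene, downstream of its 5′ end.
Bnip3 (chr7:138909525-138909635, minus strand): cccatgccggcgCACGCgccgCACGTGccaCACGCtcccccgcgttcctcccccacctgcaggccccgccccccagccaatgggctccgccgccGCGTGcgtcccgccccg
Adm (chr7:110627555-110627619, plus strand): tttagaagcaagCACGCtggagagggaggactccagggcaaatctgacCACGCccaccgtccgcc
Egln3 (chr12:54204087-54204115, minus strand): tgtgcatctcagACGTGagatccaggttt
Hif1a (chr12:73907720-73907813, plus strand): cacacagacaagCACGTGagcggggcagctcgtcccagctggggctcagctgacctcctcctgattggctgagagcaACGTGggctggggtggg

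At 24 h of LPS plus IFNγ, 8 of the 10 genes rose against M0 and Epas1 fell, while Arnt did not pass the test. Adm is among these 8, but in this experiment it passed the filter on low counts through its M1-like samples alone. In this comparison 35.4% of the 16110 tested genes were called higher and 37.5% lower. The median log2 fold change of the 10 genes was 3.0, and that of all tested genes was −0.04. In bulk samples, fewer cells of a type and less RNA per cell cannot be told apart, which holds for every level given here.

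**Figure D1:**
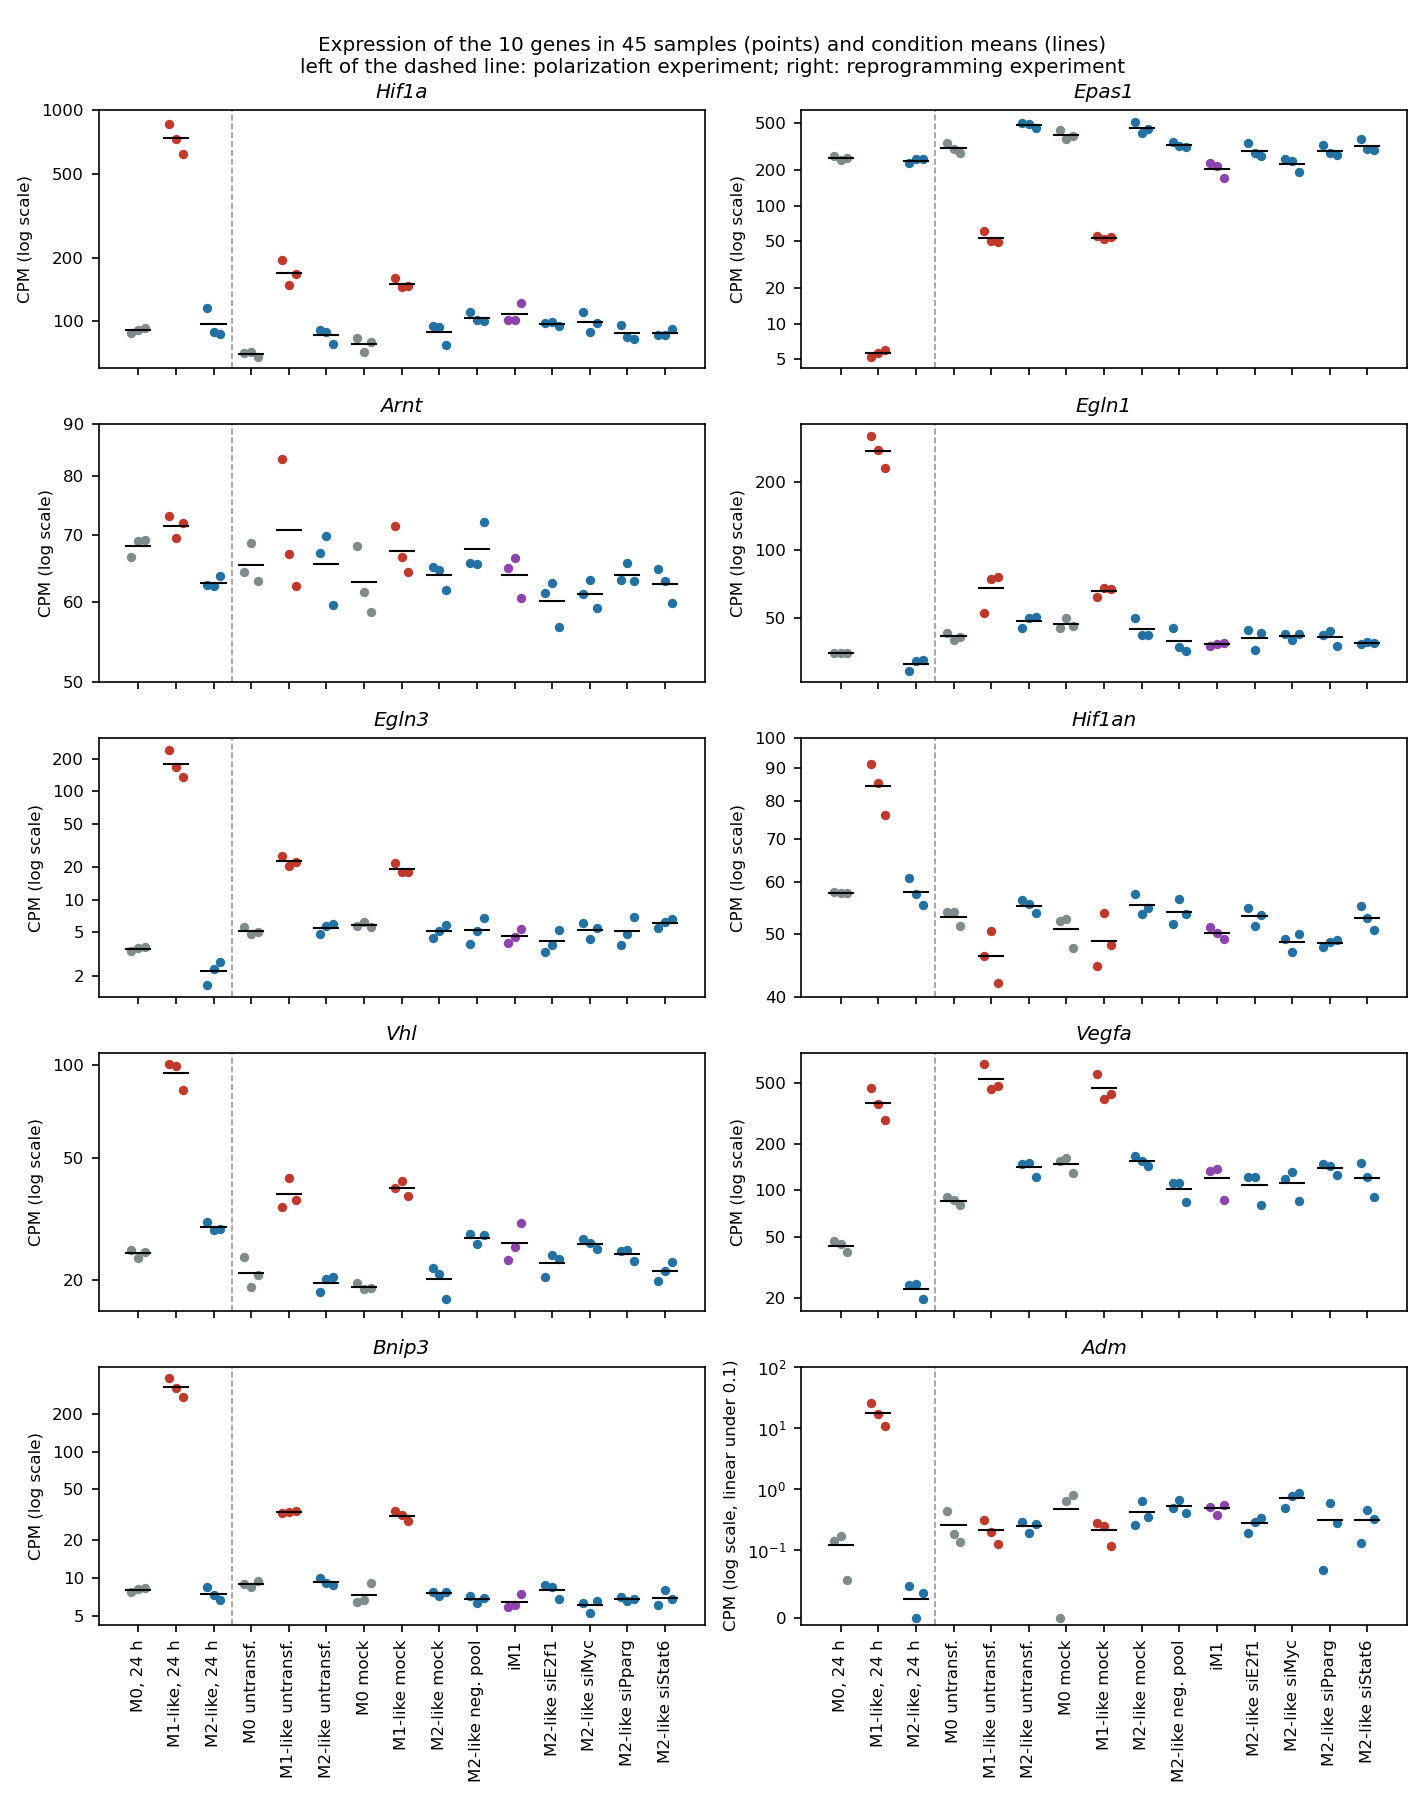
CPM (log axis, for Adm linear under 0.1) of the 10 genes in each of the 45 samples, grouped by the 15 conditions, with condition means as lines, M0 in grey, M1-like in red, M2-like in blue and iM1 in purple. All 3 M1-like samples at 24 h lie above all other samples of the polarization experiment for each gene except Epas1, where they lie below, and Adm is high in these 3 samples alone.

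The alpha subunits moved in opposite directions. Hif1a was at 88.2, 91.2 and 93.0 CPM in the M0 samples and at 863, 728 and 617 CPM in the M1-like samples, an 8.11-fold rise (log2 3.02, SE 0.13, adjusted p = 1.03e-09). Epas1 stood at 261, 245 and 251 CPM in M0 and at 5.24, 5.67 and 5.97 CPM in M1-like macrophages, 44.7-fold lower (log2 −5.48, SE 0.08, adjusted p = 1.36e-13). The groups did not overlap in either gene, and the M1-like samples of Epas1 still held 194 to 287 counts each. Per kilobase of exon (RPKM), the only scale on which the levels of different genes can be set side by side, Epas1 stood at 45.2 and Hif1a at 15.4 in M0, against 1.01 and 125 in M1-like macrophages. The ratio of Hif1a to Epas1 was 0.341 ± 0.0181 (SD, n = 3) in M0 and 125 ± 29.2 (SD, n = 3) in M1-like macrophages. Arnt, the shared partner, was at 66.5, 69.0 and 69.2 CPM in M0 and 73.1, 69.5 and 71.9 CPM in M1-like samples, a log2 fold change of 0.07 (SE 0.05, adjusted p = 0.237). Exons of Hif1a on chromosome 12 share 330 bases with the antisense gene Gm15283, which was counted in the deposited tables. They share 148 bases with the same-strand gene Gm49321, which was not counted there. Exons of Bnip3 on chromosome 7 share 504 bases with the antisense gene Gm45507, which was not counted either. The use of strand in counting is not given in the sources used here, so reads of the antisense stretches may come from either gene. Reads of the stretch shared with Gm49321 cannot be told apart by strand.

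**Figure D2:**
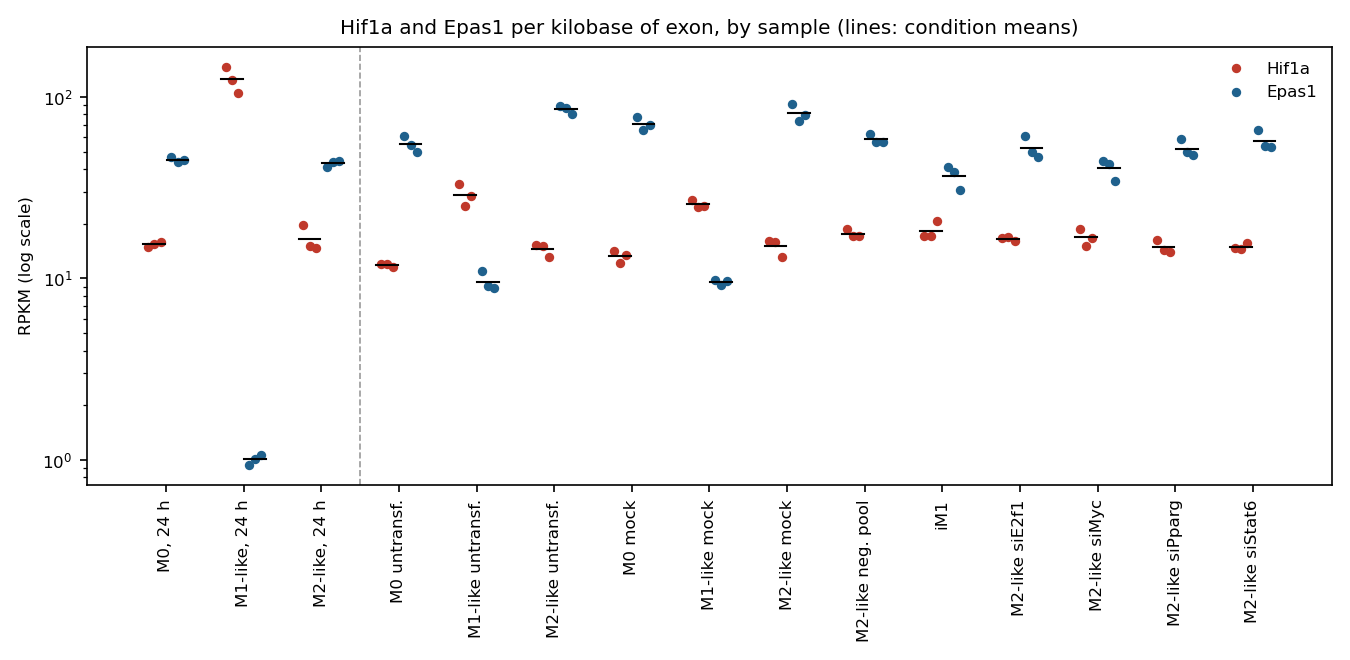
RPKM (log axis) of Hif1a in red and Epas1 in blue for each sample of the 15 conditions, with condition means as lines and the polarization experiment left of the dashed line. Hif1a is above Epas1 in the M1-like samples of both experiments and below it in all other samples, iM1 included.

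The genes whose products restrain HIF rose as well. Egln1, the main prolyl hydroxylase, went from 34.7, 35.0 and 34.7 CPM in M0 to 319, 276 and 230 CPM in M1-like samples (7.90-fold, log2 2.98, SE 0.11, adjusted p = 1.20e-10). Egln3, a prolyl hydroxylase that is itself a well-known HIF target, went from 3.36, 3.58 and 3.64 to 239, 167 and 134 CPM (51.0-fold, log2 5.67, SE 0.22, adjusted p = 2.58e-10). Both were far above the M0 range in every mouse. Vhl was higher by 3.84-fold, at 24.5 ± 0.721 CPM in M0 and 94.3 ± 9.63 CPM in M1-like macrophages (SD, n = 3; log2 1.94, SE 0.08, adjusted p = 3.20e-10). Hif1an changed least among the genes that rose, from 57.8 ± 0.172 to 84.4 ± 7.64 CPM (SD, n = 3; log2 0.55, SE 0.07, adjusted p = 1.65e-05).

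The 3 target genes rose by different amounts and from different levels. Vegfa, which codes for the angiogenic growth factor VEGF-A, was at 46.9, 44.6 and 39.7 CPM in M0 and 465, 366 and 285 CPM in M1-like macrophages (8.51-fold, log2 3.09, SE 0.16, adjusted p = 4.05e-09). Bnip3, a mitochondrial receptor for mitophagy, was at 7.74, 8.07 and 8.23 CPM in M0 and 380, 321 and 273 CPM in M1-like macrophages (40.5-fold, log2 5.34, SE 0.13, adjusted p = 4.73e-12). In both genes the lowest M1-like sample was several times above the highest M0 sample, and replicate 3 gave the lowest M1-like value. Adm codes for the vasodilator peptide adrenomedullin and was nearly silent outside M1-like macrophages, with 7, 9 and 3 counts in M0, 2, 0 and 2 counts in M2-like and 958, 652 and 517 counts in M1-like samples. Pooled over the mice, its CPM was 142 times that of M0, with a counting interval (exact, 95%) of 90.9 to 237, which covers counting error only. The test gave an adjusted p of 1.53e-08. Since Adm passed the filter on low counts through the M1-like samples alone, this p-value is not taken as support for the rise.

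**Figure D3:**
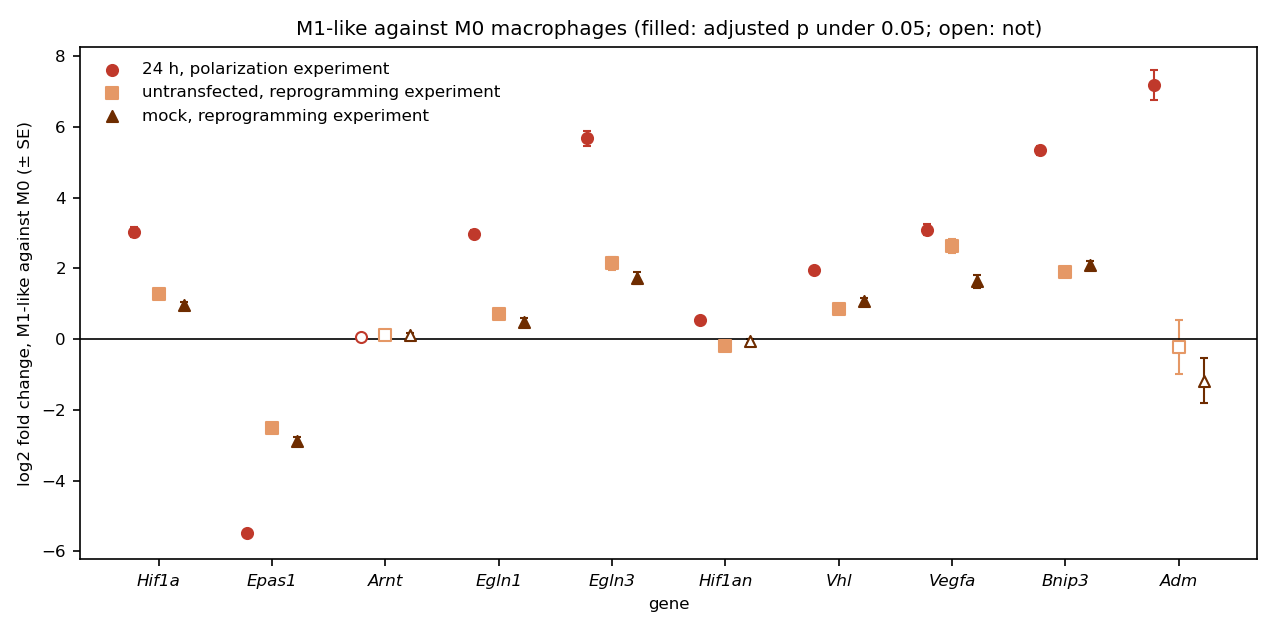
Log2 fold change (± SE) of each gene in M1-like against M0 macrophages at 24 h in the polarization experiment (red circles), untransfected (orange squares) and mock-transfected (brown triangles) in the reprogramming experiment, filled where the adjusted p-value is under 0.05. Vegfa is at 3.09 at 24 h and 2.63 in untransfected cells, Epas1 is negative in all 3 comparisons, and Adm is called at 24 h alone.

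With IL-4 for 24 h, 2 of the 10 genes were called against M0, where 27.9% of all tested genes were. Vegfa fell by 0.94 on the log2 scale (SE 0.15, adjusted p = 0.000977), with 24.2, 24.7 and 19.7 CPM in M2-like samples, all below the 3 M0 samples. Vhl rose by 1.22-fold, to 29.9 ± 0.979 CPM (SD, n = 3; log2 0.28, SE 0.08, adjusted p = 0.0156), and was no longer called without the second M0 mouse (log2 0.26, adjusted p = 0.0684). Hif1a (97.0 ± 16.1 CPM) and Epas1 (241 ± 10.2 CPM, SD, n = 3) did not pass the test, with log2 fold changes of 0.10 (SE 0.13) and −0.07 (SE 0.06). With the mouse as a block, Adm was called lower too (log2 −2.08, adjusted p = 0.0399), on 19 counts in the 3 M0 and 4 counts in the 3 M2-like samples. It was in this test only because its M1-like samples passed the filter on low counts, so this call is not taken as support. Egln3 was at 3.53 ± 0.146 CPM in M0 and 2.20 ± 0.511 CPM in M2-like macrophages (SD, n = 3; log2 −0.66, SE 0.25, adjusted p = 0.0671). All 3 of its M2-like samples lay below M0. Set directly against M2-like macrophages, which share the M1-like samples with the comparison above, all 10 genes were called in M1-like macrophages, 9 higher and Epas1 lower, beside 34.6% and 38.1% of all tested genes. Adm is among these 9, but it passed the filter on low counts through the M1-like samples alone, so its call is not taken as support. Arnt was then 1.14-fold higher (log2 0.19, SE 0.05, adjusted p = 0.00456), and Vegfa 16.3-fold (log2 4.03, SE 0.17, adjusted p = 5.53e-10).

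In the untransfected cells of the reprogramming experiment, M1-like macrophages differed from M0 in 8 of the 10 genes, 6 higher and 2 lower. Of all 14172 tested genes, 29% were called higher and 28.7% lower. Vegfa had the largest rise, with 89.9, 86.2 and 79.8 CPM in M0 and 659, 455 and 475 CPM in M1-like samples (6.21-fold, log2 2.63, SE 0.20, adjusted p = 4.37e-13). Hif1a was at 70.3, 71.2 and 67.7 CPM in M0 and 194, 148 and 167 CPM in M1-like samples (2.43-fold, log2 1.28, SE 0.10, adjusted p = 4.83e-13). Epas1 went from 340, 304 and 280 to 61.0, 50.4 and 49.2 CPM (5.75-fold lower, log2 −2.52, SE 0.13, adjusted p = 1.47e-17). The groups did not overlap in any of these 3 genes. Egln3 rose 4.42-fold (to 22.7 ± 2.31 CPM), Bnip3 3.74-fold (to 33.3 ± 0.556 CPM), Vhl 1.80-fold (to 38.1 ± 4.42 CPM) and Egln1 1.63-fold (to 67.3 ± 13 CPM; all SD, n = 3). Hif1an fell by 0.20 on the log2 scale (SE 0.07, adjusted p = 0.0105), a call that was lost without the third M1-like replicate (log2 −0.14, adjusted p = 0.10). Without that replicate, Arnt was called higher (log2 0.20, adjusted p = 0.0388), which it was not with all samples (log2 0.12, SE 0.08, adjusted p = 0.214). Adm was at 2 to 6 counts in the M0 and 2 to 5 counts in the M1-like samples.

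Mock-transfected M1-like macrophages gave 6 genes higher and Epas1 lower than mock M0, where 30.3% and 30% of all tested genes were called. Hif1a rose 1.93-fold, to 151 ± 8.22 CPM, Egln3 3.31-fold, to 19.3 ± 2.10 CPM, and Bnip3 4.23-fold, to 31.0 ± 2.87 CPM (SD, n = 3). Vegfa was at 156, 161 and 129 CPM in mock M0 and 571, 390 and 423 CPM in mock M1-like samples (3.10-fold, log2 1.63, SE 0.19, adjusted p = 8.39e-09). No sample of the groups overlapped in these genes. Egln1 (1.40-fold) and Vhl (2.09-fold) rose too, and Epas1 fell from 397 ± 35.0 to 53.6 ± 1.70 CPM (SD, n = 3; 7.41-fold). Adm was called lower only without the first mock M0 replicate (log2 −1.70, adjusted p = 0.00787), which held 0 counts where the other 2 held 12 each. Against M2-like macrophages, which share the M1-like samples with these comparisons, 6 genes were higher and 2 (Epas1 and Hif1an) lower in the untransfected cells, beside 31.3% and 30.2% of all genes. The same counts were found in mock cells, beside 30.9% and 29.8%, but Hif1an in mock cells was no longer called without the first (log2 −0.12, adjusted p = 0.153) or the third (log2 −0.17, adjusted p = 0.0537) M1-like or the first M2-like replicate (log2 −0.15, adjusted p = 0.0863). In untransfected cells Arnt was called higher than in M2-like macrophages without the third M1-like replicate (log2 0.20, adjusted p = 0.0404).

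The M1-like effect differed between the experiments in most of the genes when the difference itself was tested. In the untransfected cells 8 of the 10 genes had another effect than at 24 h, where 49% of the 15835 genes of the joint model did. The log2 effect in untransfected cells minus that at 24 h was −1.73 (SE 0.15) for Hif1a, −2.27 (SE 0.15) for Egln1, −3.52 (SE 0.27) for Egln3 and −3.43 (SE 0.16) for Bnip3, all smaller rises. It was 2.97 (SE 0.17) for Epas1, a smaller fall, and Vhl (−1.09, SE 0.13), Hif1an (−0.74, SE 0.09) and Adm were called too. Vegfa was among the 2 that were not called, with a difference of −0.45 (SE 0.27, adjusted p = 0.174) and a 95% interval of −0.97 to 0.08, but it was called with the replicate (in the polarization experiment the mouse) as a block (−0.43, adjusted p = 0.0258). Taking the mock cells in place of the untransfected, 9 of the 10 genes differed from 24 h, Vegfa included (−1.44, SE 0.27, adjusted p = 1.61e-05), beside 53.9% of all genes. Both counts include Adm, which held 2 to 6 counts per sample in the untransfected and 0 to 12 in the mock M0 and M1-like cells. In the polarization experiment it passed the filter on low counts through the M1-like samples alone, so its calls are not taken as support. These comparisons share the 24 h samples. The experiments differ in read length, and that and any difference in animals, preparation or harvest time cannot be told apart.

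M2-like macrophages of the reprogramming experiment had 3 genes higher than untransfected M0, where 10.7% of all genes were called higher. Epas1 rose 1.55-fold, to 497, 487 and 451 CPM (log2 0.64, SE 0.12, adjusted p = 0.000148), above all M0 samples. Vegfa rose 1.65-fold, to 148, 151 and 122 CPM (log2 0.72, SE 0.19, adjusted p = 0.00686), in the opposite direction to its fall at 24 h. That difference between the experiments was called (log2 1.64, SE 0.27, adjusted p = 3.55e-05), as were those of Epas1 (0.68, SE 0.16) and Vhl (−0.41, SE 0.13), where 17.2% of all genes were. Hif1a rose 1.23-fold (log2 0.30, SE 0.10, adjusted p = 0.0285), a call that was lost without any 1 of the 3 M0 or the first or second M2-like replicate (adjusted p = 0.0599 to 0.111). The difference of Vhl was lost without the second M0 or first M2-like mouse at 24 h or the first untransfected M0 or M2-like replicate (log2 −0.31 to −0.39, adjusted p = 0.0523 to 0.123). Without that same M2-like replicate, a difference of Egln1 was called (log2 0.45, adjusted p = 0.0490).

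In mock cells 0 of the 10 genes were called between M2-like and M0 by edgeR and by DESeq2, and 0 had an unadjusted p under 0.05, where 3.83% of all genes were called. Against the untransfected state, mock M0 had 2 called genes beside 20.4% of all genes, Vegfa 1.74-fold higher (149 ± 17.3 against 85.3 ± 5.11 CPM; log2 0.80, SE 0.19, adjusted p = 0.00243) and Epas1 1.29-fold higher (397 ± 35.0 against 308 ± 30.5 CPM, SD, n = 3; log2 0.37, SE 0.12, adjusted p = 0.0225). The call of Epas1 was lost without the second (log2 0.36, adjusted p = 0.0691) or the third untransfected (log2 0.30, adjusted p = 0.121) or the first mock replicate (log2 0.30, adjusted p = 0.111). Without the third mock replicate, Bnip3 was called lower (log2 −0.45, adjusted p = 0.0149). Mock M2-like macrophages had 0 called members by edgeR and by DESeq2 and 1 at an unadjusted p under 0.05, where 1.77% of all genes were called. Mock M1-like macrophages had 0 by either tool and at an unadjusted p under 0.05, and 0% of all genes were called (438 genes had an unadjusted p under 0.05). The M1-like log2 effect of Vegfa in mock minus that in untransfected cells was −1.0 (SE 0.26, adjusted p = 0.0133), the single called difference among the 10 genes beside 9.07% of all genes. It was lost without the first untransfected M1-like replicate (log2 −0.81, adjusted p = 0.0543), and without the second Hif1a was called as well (log2 −0.42, adjusted p = 0.0440). For the M2-like effect 0 genes were called by edgeR and by DESeq2 (3 at an unadjusted p under 0.05, 5.66% of all genes called), and Vegfa had a difference of −0.66 (SE 0.27, adjusted p = 0.161).

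Between iM1 macrophages and the negative pool, Epas1 differed and the other 9 genes were not called. M2-like macrophages with the negative pool had 348, 317 and 314 CPM of Epas1 and iM1 macrophages 229, 216 and 172 CPM, 1.59-fold lower (log2 −0.67, SE 0.12, adjusted p = 6.27e-05), with no overlap. It was the only one of the 10 that was called, beside 26.5% of all genes. Hif1a was at 111, 101 and 101 CPM with the negative pool and 102, 101 and 122 CPM in iM1 macrophages, with overlapping samples and a 95% interval of the log2 difference of −0.13 to 0.24. Vegfa was at 111, 112 and 84.5 against 134, 138 and 86.4 CPM, also with overlap, and its interval was −0.15 to 0.59. For Bnip3 the interval was −0.34 to 0.17, and Egln3 (−0.57 to 0.19) and Vhl (−0.25 to 0.14) also included 0. The summed mesothelial or fibroblast markers were at 174 to 254 CPM with the negative pool and 151 to 236 CPM in iM1 macrophages.

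**Figure D4:**
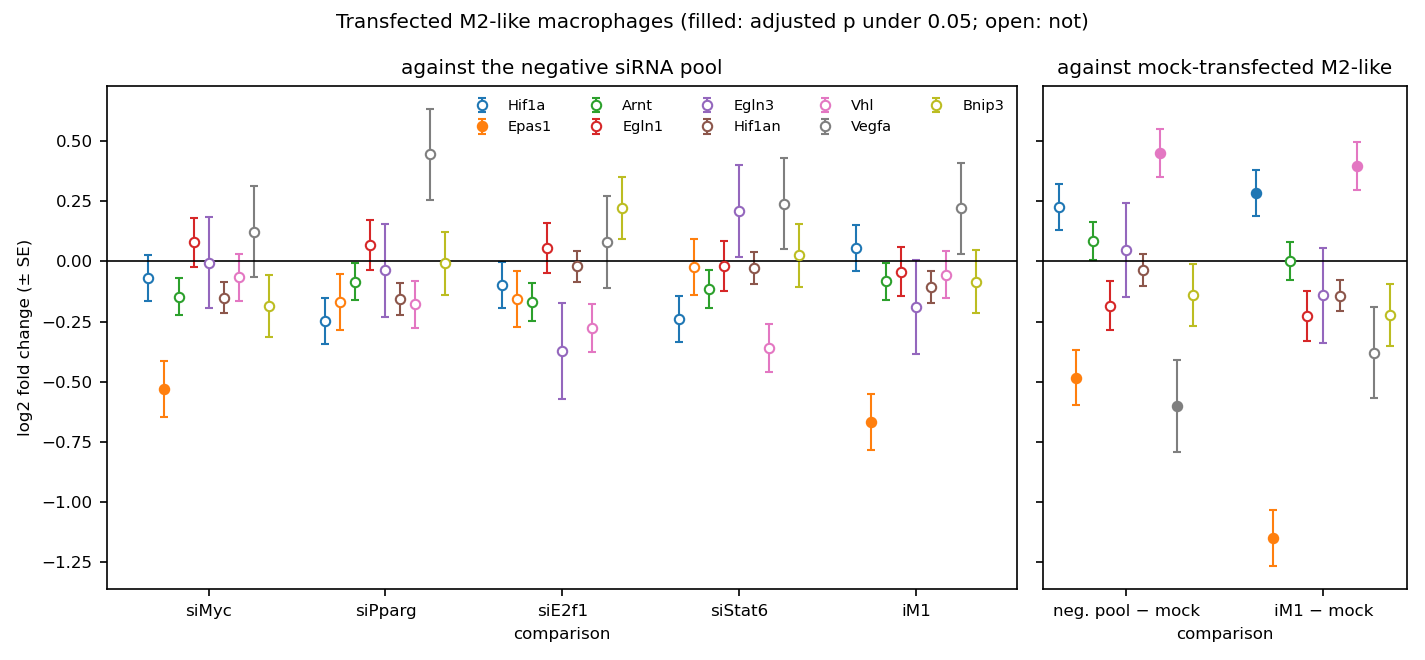
Log2 fold change (± SE) of 9 genes (Adm is left out for its low counts) against the negative siRNA pool on the left, and of the negative pool and of iM1 against mock-transfected M2-like macrophages on the right, filled where the adjusted p-value is under 0.05. Epas1 is the only filled point on the left, for the Myc knockdown (−0.53) and iM1 (−0.67), whereas the negative pool differed from mock in Epas1, Vhl and Vegfa.

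Among the single knockdowns, which share the negative pool with this comparison, 1 of the 10 genes was called for Myc, beside 29.6% of all genes. Epas1 was at 248, 237 and 193 CPM after Myc knockdown, all below the negative pool (1.44-fold lower, log2 −0.53, SE 0.12, adjusted p = 0.000789). None was called by edgeR for Pparg (3 at an unadjusted p under 0.05, 0 by DESeq2, 5.74% of all genes called), E2f1 (2, 0 and 0.91%) or Stat6 (2, 1 and 1.51%). Epas1 was at 290 ± 31.8 CPM after knockdown of Pparg, 293 ± 41.7 CPM of E2f1 and 321 ± 41.0 CPM of Stat6 (SD, n = 3). Vegfa was highest after Pparg knockdown, at 148, 145 and 125 CPM (log2 0.45, SE 0.19, adjusted p = 0.173), above all samples of the negative pool. For Stat6, Vhl was at 21.5 ± 1.55 CPM against 27.6 ± 1.17 CPM with the negative pool (SD, n = 3; log2 −0.36, SE 0.10, adjusted p = 0.0622), and DESeq2 called it lower (adjusted p = 0.0280).

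Compared with the single knockdowns directly, iM1 macrophages differed from Myc knockdown in 0 of the 10 genes by edgeR and by DESeq2, with 0 at an unadjusted p under 0.05 and 0.0494% of all genes called. The 95% interval of the difference of Epas1 was −0.36 to 0.09. Epas1 was lower in iM1 macrophages than after knockdown of Pparg (log2 −0.50, SE 0.12, adjusted p = 0.00284), E2f1 (−0.51, SE 0.12, adjusted p = 0.00173) and Stat6 (−0.64, SE 0.12, adjusted p = 0.000140). These comparisons had 2, 1 and 3 called genes beside 18%, 21.6% and 22.2% of all genes. The others were Hif1a against Pparg (log2 0.31, adjusted p = 0.0239) and against Stat6 (0.30, adjusted p = 0.0236), and Vhl against Stat6 (0.30, adjusted p = 0.0259), all higher in iM1 macrophages. These 3 calls rested on single samples. Hif1a against Pparg was lost without the third iM1 (log2 0.21, adjusted p = 0.187) or the second or the third Pparg replicate (adjusted p = 0.0966 and 0.0976). Hif1a against Stat6 was lost without the third iM1 (log2 0.20, adjusted p = 0.180) or the first or second Stat6 replicate (adjusted p = 0.0723 and 0.0757), and Vhl without the same samples (log2 0.19, 0.25 and 0.30, adjusted p = 0.224, 0.120 and 0.0619). Against E2f1, Vhl was called higher without the first iM1 replicate (log2 0.30, adjusted p = 0.0454), and Bnip3 lower without the third iM1 or the third E2f1 replicate (log2 −0.41 in both, adjusted p = 0.0439 and 0.0371).

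The controls of the knockdowns differed among themselves. The negative pool differed from mock-transfected M2-like macrophages in 3 of the 10 genes, beside 11.7% of all genes. Epas1 was lower (327 ± 18.9 against 456 ± 50.3 CPM, SD, n = 3; log2 −0.48, SE 0.12, adjusted p = 0.00473) and Vhl higher (27.6 ± 1.17 against 20.2 ± 2.42 CPM, SD, n = 3; log2 0.45, SE 0.10, adjusted p = 0.00226), without overlap in either. Vegfa was lower (102 ± 15.6 against 155 ± 11.9 CPM, SD, n = 3; log2 −0.60, SE 0.19, adjusted p = 0.0342), but this call was lost when any 1 of the 6 samples was left out (log2 −0.48 to −0.67, adjusted p = 0.0503 to 0.182). Against mock, iM1 macrophages then had 3 called genes beside 37.1% of all genes. Epas1 was 2.22-fold lower (log2 −1.15, SE 0.12, adjusted p = 2.32e-09), Vhl 1.32-fold higher (log2 0.40, SE 0.10, adjusted p = 0.00214) and Hif1a 1.22-fold higher (log2 0.28, SE 0.10, adjusted p = 0.0190). The call of Hif1a was lost without the third iM1 or the third mock replicate (log2 0.19 in both, adjusted p = 0.167 and 0.148). Hif1a was also higher in every negative pool sample (101 to 111 CPM) than in every mock sample (77.4 to 95.0 CPM), though not called. Vegfa was lower in every iM1 sample (86.4 to 138 CPM) than in every mock sample (144 to 168 CPM). It was not called, except with the replicate as a block.

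Set against mock M1-like macrophages, iM1 macrophages had 6 of the 10 genes lower and 1 higher, where 25.6% and 27.2% of all tested genes were called. Bnip3 was 4.82-fold lower (6.43 ± 0.813 against 31.0 ± 2.87 CPM), Egln3 4.14-fold (4.66 ± 0.709 against 19.3 ± 2.10 CPM) and Vegfa 3.86-fold (119 ± 28.6 against 461 ± 96.4 CPM; all SD, n = 3). Egln1 (1.72-fold), Vhl (1.5-fold) and Hif1a (1.39-fold) were lower as well. None of these 6 overlapped between the groups, but the share of all genes without overlap was not computed. Epas1 was 3.84-fold higher in iM1 macrophages (log2 1.94, SE 0.12, adjusted p = 1.48e-14). Arnt (log2 −0.08, SE 0.08) and Hif1an (0.04, SE 0.07) did not pass the test.

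Ordered by mean over the 12 conditions of the reprogramming experiment, Epas1 was highest in untransfected M2-like macrophages (479 ± 24.3 CPM), mock M2-like (456 ± 50.3) and mock M0 (397 ± 35.0), neighbours whose samples overlapped. The negative pool, the Stat6, E2f1 and Pparg knockdowns and untransfected M0 followed between 290 and 327 CPM with overlapping samples, then the Myc knockdown (226 ± 29.2) and iM1 (206 ± 30.4), which overlapped, and last the M1-like macrophages, untransfected (53.6 ± 6.52) and mock (53.6 ± 1.70; all SD, n = 3). Hif1a ran from 69.7 ± 1.79 CPM in untransfected M0 to 169 ± 23.4 CPM in untransfected and 151 ± 8.22 CPM in mock M1-like macrophages, and iM1 (108 ± 12) came after these, next to the negative pool (104 ± 5.85) with overlapping samples. Vegfa ran from 85.3 ± 5.11 CPM in untransfected M0 to 530 ± 113 CPM in untransfected M1-like macrophages, with all transfected or untransfected M2-like conditions and mock M0 between 102 and 155 CPM. In Arnt the 12 means lay between 60.2 and 70.8 CPM.

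Over the same 12 condition means of log2 CPM, the genes with the pattern most like that of Epas1 among 10223 genes were Daglb (r = 0.994), Crat (0.994) and Kcnk6 (0.992), and over the 9 samples at 24 h their correlations were 0.998, 0.989 and 0.997. For Hif1a they were Cept1 (0.992), Llph (0.984) and Gm10273 (0.982), with 0.994, −0.22 and 0.897 over the 9 samples at 24 h. For Vegfa, Gna13 (0.984) and Arl4a (0.977) were among the 3 most alike, with 0.95 and 0.953 over these samples. The points share libraries and are dominated by the distance of the M1-like conditions, so these values are a description only.

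Other genes of the pathway were counted by list, to be read beside the shares of all genes called in the same comparison (35.4% higher and 37.5% lower at 24 h of LPS plus IFNγ, 29% and 28.7% in untransfected and 30.3% and 30% in mock cells). At 24 h, 17 of 18 hypoxia-inducible genes of glucose use rose, led by Slc16a3 (log2 4.96), the lactate exporter, and Hk2 (3.5), a hexokinase, and Pfkfb4 fell (log2 −0.95). The median of the list was 2.84 beside −0.04 over all tested genes. Of 29 hypoxia targets outside glycolysis 21 rose and 7 fell, with a median of 3.08, from Edn1 (log2 8.52), the precursor of endothelin-1, and Ak4 (7.19), a mitochondrial adenylate kinase, to Cxcr4 (−2.53), a chemokine receptor, and Plin2 (−1.13), a lipid droplet protein. Edn1 was at 0.0377 ± 0.0320 CPM in M0 (SD, n = 3), so its fold rests on few counts. In untransfected cells the counts against M0 were 15 higher and 2 lower of 18 (median 0.78) and 14 higher and 6 lower of 28 (median 0.55), and in mock cells 15 and 1 (median 0.74) and 15 and 9 (median 0.69), where the median of all genes was 0.01 and 0.02. The effect in untransfected cells was lower than at 24 h for 17 of the 18 genes of glucose use and for 21 of the 28 others, where 49% of all genes differed in either direction. In iM1 macrophages against the negative pool, 4 of the 18 genes of glucose use were higher and 6 lower, with a median of 0.03 beside 0.01 over all genes, and 5 of the 28 others were higher and 3 lower (median −0.07), where 26.5% of all genes were called in either direction. Against mock M1-like macrophages 0 of the 18 genes of glucose use were higher and 16 lower (median −0.77), where 27.2% and 25.6% of all genes were.

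**Figure D5:**
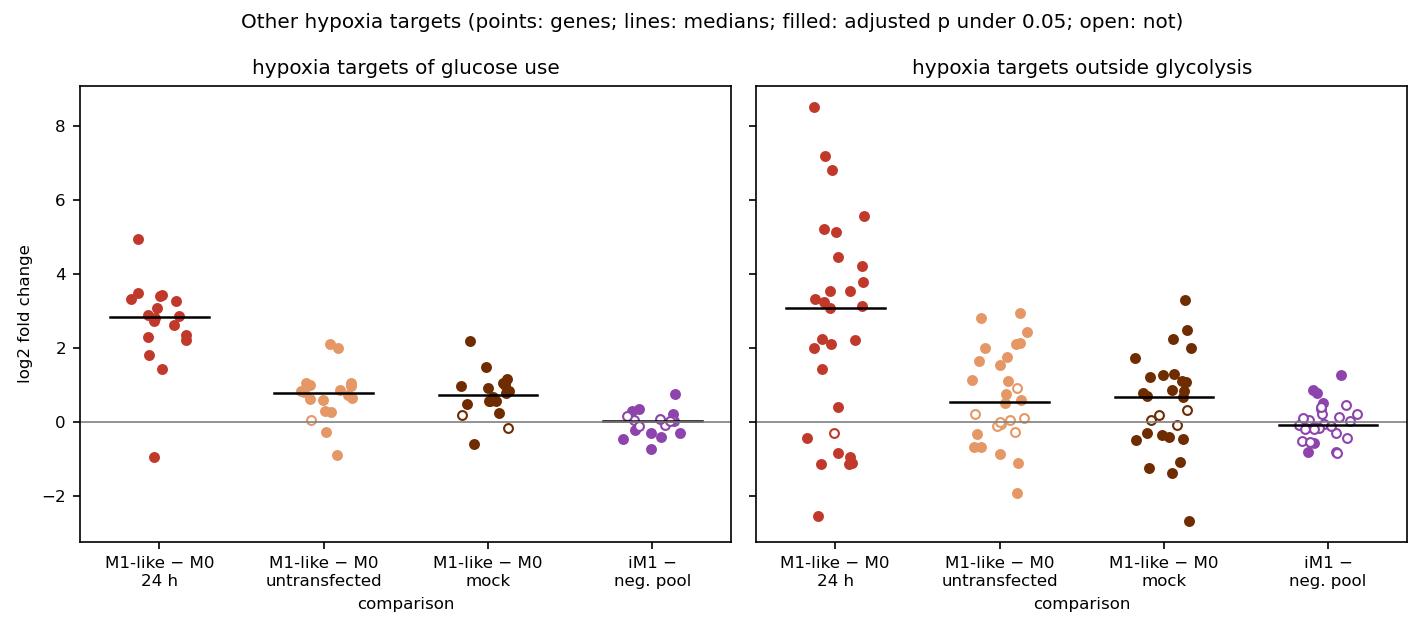
Log2 fold changes of the hypoxia-inducible genes of glucose use (left) and of other hypoxia targets (right) in M1-like against M0 macrophages of 3 settings and in iM1 against the negative pool, one point per gene, filled where the adjusted p-value is under 0.05, with medians as lines. The medians fall from 2.84 and 3.08 at 24 h to 0.78 and 0.55 in untransfected cells and 0.03 and −0.07 in iM1 macrophages.

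The machinery that modifies or degrades the alpha subunits was counted next. At 24 h of LPS plus IFNγ, 11 of 18 measured hydroxylation, degradation and co-regulator genes rose and 4 fell (median log2 0.29), where 35.4% of all genes were called higher and 37.5% lower. Cul2, the cullin of the VHL ligase, had the largest rise (1.51), ahead of the chaperone gene Hsp90aa1 (1.32), and Zfp36l1 (−1.10) and Rack1 (−0.65) had the largest falls. In untransfected cells 3 rose and 7 fell (median −0.07), where 29% of all genes were called higher and 28.7% lower. Of the 11 mitophagy genes set beside Bnip3, 3 rose and 6 fell at 24 h beside the same shares of all genes (35.4% and 37.5%), with Sqstm1 (1.78), an autophagy receptor, at the top and Pink1 (−1.91), the mitochondrial damage kinase, at the bottom. Of the other HIF subunits and ARNT paralogues, 2 of 3 were tested at 24 h, and 1 of them, the ARNT paralogue Arntl, was called (lower, −0.82).

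In the VEGF family and its receptors, 4 of 8 genes rose and 3 fell at 24 h of LPS plus IFNγ (35.4% and 37.5% of all genes), with Flt4, the receptor of VEGF-C, from 0.178 ± 0.0905 to 10.8 ± 0.920 CPM (SD, n = 3; log2 5.90) and the co-receptor Nrp1 from 515 ± 14.1 to 105 ± 6.76 CPM (SD, n = 3; log2 −2.30). The second largest rise was that of Pgf, placental growth factor, to 0.955 ± 0.125 CPM (SD, n = 3; log2 5.10), and the second largest fall that of Vegfc (log2 −1.99). The folds of Flt4 and Pgf rest on few counts in M0. With IL-4, Flt1, a receptor of VEGF-A, rose from 0.965 ± 0.114 to 13.8 ± 2.33 CPM (SD, n = 3; log2 3.83), while Vegfa fell. In iM1 macrophages, 3 of 9 rose against the negative pool (26.5% of all genes were called in either direction), Pgf (log2 2.26, from 0.0836 to 0.427 CPM), Flt4 (2.07) and Nrp2 (0.55), and Nrp1 fell (−0.64). The fold of Pgf rests on few counts here too. With the negative pool, Flt1 (13.9 ± 1.36 against 3.57 ± 0.290 CPM) and Kdr (73.0 ± 2.99 against 29.6 ± 1.13 CPM, SD, n = 3) were higher than with mock transfection, and Nrp1 was lower (log2 −0.36). Of the 3 tested genes of the adrenomedullin receptor list, Ramp3 (log2 4.64) rose and Ramp1 (−6.02) and Calcrl (−2.27) fell at 24 h of LPS plus IFNγ.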

How the data were processed

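The files held counts per gene and library that the authors deposited as whole numbers without normalization. For these, reads had been cleaned with Trimmomatic, aligned with TopHat2 to GRCm38 (mm10) and assigned to genes with featureCounts. The library totals, 13421854 to 29880494 counts, set the precision. Conditions were taken from the sample labels. Symbols, coordinates and exon lengths came from GENCODE M21 (37607 of 39179 identifiers had a symbol).

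Technical libraries of 1 mouse and condition differed by about counting noise (chi-square per gene 1.07 to 1.11) and were added up, so 54 libraries gave 45 samples. After edgeR's filterByExpr (minimum count 10, minimum total 15) and TMM scaling, 1 model per experiment with a coefficient for each condition was tested by edgeR's quasi-likelihood F test, two-sided, and p-values were adjusted over all tested genes by Benjamini and Hochberg's method. Effects were compared between experiments in a joint model. The SE is the size of the log2 fold change divided by the square root of F, and 95% intervals were taken from it. Overlap of samples between groups was examined for the 10 genes only, so no share over all genes stands beside it. The tests were checked on simulated counts. In the polarization experiment same-numbered samples came from the same mouse, and their deviations from the condition means had a median correlation of 0.25, against −0.14 between mice. Deviations within a condition sum to 0, so the value between mice is not independent of that within mice. The main tests did not use this pairing.

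The 10 genes and the gene lists were chosen with earlier results of these data known. From each list, at most the 2 called genes with the largest rise and the 2 with the largest fall are named per comparison, plus any that account for a count of 5 or fewer. The genes most like a member are the 3 with the highest correlation among genes with a mean log2 CPM of at least 2 (prior count 2). For Vegfa, 1 of these 3 is not reported here. Each result was recomputed with DESeq2, with RLE scaling, without a count filter, with 10 or more counts required in all samples, with a replicate block, with the compared groups alone, and without each sample in turn. Versions were edgeR 4.0.16, DESeq2 1.42.0, R 4.3.3 and Python 3.11.15.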

Additional observations from a re-analysis of the deposited data

Results flagged for a closer look

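The effects that differed between experiments or between mock and untransfected cells by a test of the difference itself (edgeR's quasi-likelihood test, adjusted p-value under 0.05) are listed here. For M1-like against M0 macrophages, the log2 effect in the untransfected cells minus that at 24 h was −1.73 for Hif1a, 2.97 for Epas1, −2.27 for Egln1, −3.52 for Egln3, −0.74 for Hif1an, −1.09 for Vhl, −3.43 for Bnip3 and −7.36 for Adm. The same difference with mock cells was −2.06 for Hif1a, 2.61 for Epas1, −2.48 for Egln1, −3.93 for Egln3, −0.59 for Hif1an, −0.86 for Vhl, −1.44 for Vegfa, −3.24 for Bnip3 and −8.31 for Adm. Hif1an was higher at 24 h (log2 0.55) and lower in untransfected cells (−0.20), but the latter call was lost without the third M1-like replicate. In mock cells its effect was −0.06, with overlapping samples. The values of Adm rest on 2 to 6 counts per sample in the untransfected cells. At 24 h it passed the filter on low counts through the M1-like samples alone, so its calls are not taken as support.

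For M2-like against M0 macrophages, the untransfected effect minus that at 24 h was 0.68 for Epas1, −0.41 for Vhl and 1.64 for Vegfa, which was lower than M0 at 24 h and higher in the untransfected cells. Between mock and untransfected cells, the M1-like effect of Vegfa differed by −1.0. The read length of the experiments and any difference in animals, preparation or time cannot be told apart, and groups of 3 samples were not searched for outlying samples.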

How the results depend on the processing

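Of 1310 called values of the 10 genes recomputed under the alternatives, 1269 kept direction and call, 41 lost the call (35 of them by leaving out a sample) and 0 changed direction. Of 2408 uncalled values, 33 gained a call and 132 changed sign without a call. The number of the 10 genes called moved by more than 1.5 times in these cases. For IL-4 against M0 at 24 h it was 4 with DESeq2 (2 before) and 1 to 2 without a sample. For Pparg against the negative pool it was 1 (Vegfa, 0 before) with no filter, with the replicate block and with the compared groups alone, and for Stat6 1 (Vhl, 0 before) with DESeq2, the replicate block and the compared groups alone. The mock minus untransfected difference had 2 called genes for M1-like (1 before) with the replicate block, and for M2-like (0 before) 2 with no filter, 2 with the replicate block and 1 with the compared groups alone. The M2-like difference from 24 h had 5 (3 before) with the compared groups alone. Leaving out a sample gave 1 to 3 for mock against untransfected M0, 1 to 2 for iM1 against Pparg and against E2f1, 1 to 3 against Stat6, and 0 to 2 for the M1-like mock minus untransfected difference.

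The replicate block used the mouse in the polarization experiment. It also called Vegfa for iM1 against mock (log2 −0.40, adjusted p = 0.00638). In the reprogramming experiment the samples share only a number, though 34 of 36 correlated best with samples of their own number. Adm was not tested with at least 10 counts in every sample. With the compared groups alone it was not tested in 24 comparisons. A fit without 1 sample assumes that the remaining 2 vary like the other groups. Counts under 10 limit Adm, and with 3 samples a group, differences inside the intervals given are not excluded.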
